A study of Mus musculus with 18 samples.

Results

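Mouse distal colon collected late in the light, at 4pm, was compared with colon collected 12 h later, late in the dark, at 4am. The members are the 6 arrays whose titles give those times, 3 at each (a, b and c), out of 18 arrays at 6 times, and the readout is the signal of 12870 genes. The mice had been kept for 2 weeks in a cycle with 12 h of light a day, which began at clock hour 7 and ended at 19, and food was freely available, so 4pm lay 9 h and 4am 21 h after lights on. A piece of colon was cut about 0.5 cm above the anus, its total RNA was treated with DNase, and each biotin-labelled sample was hybridised to an Affymetrix mouse genome array. Both groups were otherwise handled alike as far as the labels say; strain, sex, age and whether an array held 1 animal or a pool are not given in the sources used here. The p values below therefore measure the spread between arrays, taken per gene over all 18, which may be partly technical.

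In mammals a clock of transcription and translation runs in nearly every cell. BMAL1 (gene Arntl) and CLOCK bind E-box elements and switch on the Per and Cry genes, whose proteins return to block them, and in a second loop REV-ERBα and REV-ERBβ (Nr1d1 and Nr1d2) repress Arntl. The output factors DBP, TEF and HLF bind D-box elements and pass the rhythm on to other genes. In the gut of nocturnal animals, feeding, transport, motility and epithelial renewal vary over the day, and meal times can set the clock of the gut wall.

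The RNA of the 6 arrays was of uneven quality. The Gapdh control, probed at both ends of its transcript, gave a 3′ to 5′ signal ratio of 0.867, 34.3 and 2.33 in 4pm a, b and c and of 36.0, 18.2 and 0.75 in 4am a, b and c, against at most 1.12 in the 14 arrays other than 4pm b, 4pm c, 4am a and 4am b. Actb gave 1.24, 4.99 and 1.80 at 4pm and 55.4, 16.6 and 1.22 at 4am. So 4pm b, 4am a and 4am b are called the high-ratio arrays here, and 4pm a, 4pm c and 4am c the low-ratio arrays. Across genes, 4pm a correlated with 4am c at r = 0.959 but with 4am a at r = 0.763, a description over genes, which are not independent. The median within-time SD of a gene on the log2 scale was 0.329 at 4pm and 0.521 at 4am, against 0.189 to 0.265 at the other 4 times. The tests below share a single spread per gene over all 18 arrays, so their errors draw on those quieter times. The median SE of the 4pm minus 4am difference was 0.30 in that fit and 0.39 with only the 6 arrays. Absorptive colonocyte markers had a mean log2 signal of 12.45, 12.3 and 12.41 in 4pm a, b and c and 11.88, 12.47 and 12.46 in 4am a, b and c, and the markers of goblet cells lay between 12.2 and 12.6 in all 6 arrays, so both main epithelial cell types of the colon were present. Many differences below are given also within the low-ratio arrays (the mean of 4pm a and c minus 4am c) and within the high-ratio arrays (4pm b minus the mean of 4am a and b), neither of which has a test of its own. The classes were not matched in quality between the times. Actb was at 4.99 in 4pm b against 55.4 and 16.6 in 4am a and b. In 4pm c both ratios, 2.33 and 1.80, were above those of 4pm a and 4am c. Time and array quality therefore cannot be fully told apart within a class.

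Of 12870 genes, 6 (0.0466%) passed the test, and all 6 were higher at 4pm. They were the clock genes Dbp and Nr1d1, the transcription factor gene Csrnp1, the kinase gene Wnk4, the transporter gene Slc36a1 and 1 unnamed cDNA clone. No gene was lower at 4pm with limma at an adjusted p under 0.05, while 763 genes were lower at an unadjusted p under 0.05 (5.93%) and 1770 were higher (13.8%). The groups did not overlap, every 4pm array lying above every 4am array, in 717 genes (5.57%), and lay the other way in 292 (2.27%). Differences are log2(signal + 16) at 4pm minus 4am ± SE from limma, with 3 arrays a time and p adjusted by the Benjamini-Hochberg method over all genes. The median difference over all genes was 0.12, so the zero point is itself slightly shifted, and quantile normalization brought it to 0.02. It called 8 genes higher (0.0622%) and 1 lower (0.00777%, the chloride channel regulator gene Clca4a), or 9 in all (0.0699%), and at an unadjusted p under 0.05 the 1770 higher and 763 lower became 1345 (10.5%) and 696 (5.41%), 2041 in all (15.9%), or 1140 and 1300 with each array centred on its median. Leaving out 4pm a, 4am a or 4am b left 3, 3 or 2 genes higher and none lower, while leaving out 4am c gave 2567 higher and 1523 lower, with 4am a and 4am b alone at 4am. Without the 3 high-ratio arrays limma called no gene, with 799 genes at an unadjusted p under 0.05 (6.21%), and 2 arrays then stood against 1.

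Dbp encodes an output factor of the clock that binds D-boxes, and it had the largest difference of the 6 genes. Its signal was 2824, 4255 and 3970.1 in 4pm a, b and c and 235, 307 and 239 in 4am a, b and c. All 3 arrays at 4pm were far above all 3 at 4am, in low-ratio and high-ratio arrays alike. The difference was 3.73 ± 0.47 (13.3-fold, adjusted p = 0.00263), and it was 3.72 within the low-ratio and 3.91 within the high-ratio arrays. A further probe set of Dbp gave 4.38, also without overlap. Dbp passed when any 1 of the 6 arrays was left out, with differences of 3.62 to 3.91, and it alone was called (0.00777%) when the fit used only the 6 arrays, where 504 genes had an unadjusted p under 0.05 (3.92%).

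Nr1d1, which encodes the nuclear receptor REV-ERBα, a repressor of Arntl, had a signal of 1269, 444 and 1028 in 4pm a, b and c and 47.6, 108 and 186 in 4am a, b and c. The groups did not overlap, although 4pm b stood well below the other two 4pm arrays. The difference was 2.86 ± 0.45 (7.29-fold, adjusted p = 0.0196), 2.52 within the low-ratio and 2.37 within the high-ratio arrays. The call was lost when 4pm a, 4pm c, 4am a or 4am b was left out, while the difference stayed between 2.43 and 3.31.

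Csrnp1, whose protein is a nuclear factor induced by AXIN1 and belongs to the immediate early genes, had a signal of 327, 322 and 262 in 4pm a, b and c and 68.1, 58 and 55.2 in 4am a, b and c. The 3 values within each time lay close together, and those at 4am were near the low end of the array's range. The difference was 2.06 ± 0.26 (adjusted p = 0.00263) with 16 added to each signal, 2.31 with 1 added and 1.56 with 64 added, so its fold at these low 4am signals depends on the constant. It was 2.12 within the low-ratio and 2.10 within the high-ratio arrays. It passed when any 1 array was left out, with 2.01 to 2.16. A second probe set of Csrnp1, below the filter on low values, gave 0.88, with overlap.

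Wnk4 encodes a kinase that regulates sodium, potassium and chloride transporters of salt-absorbing epithelia. Its signal was 901, 920.1 and 1136 in 4pm a, b and c and 243, 183 and 452 in 4am a, b and c. The 4pm arrays lay close together and above all 4am arrays, of which 4am c was the highest. The difference was 1.79 ± 0.30 (3.45-fold, adjusted p = 0.0361), but 1.14 within the low-ratio arrays against 2.04 within the high-ratio arrays. The call was lost when any array but 4am c was left out, while the difference stayed between 1.52 and 2.13.

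Slc36a1 encodes the proton-coupled amino acid transporter PAT1, found at the brush border and in lysosomes. Its signal was 3421, 5014 and 2816 in 4pm a, b and c and 1342, 1052 and 1552 in 4am a, b and c. All 4pm arrays were above all 4am arrays, with 4pm b the highest. The difference was 1.48 ± 0.25 (2.78-fold, adjusted p = 0.0361), 0.99 within the low-ratio and 2.06 within the high-ratio arrays. The call was kept only without 4pm c and without 4am c, and the difference over the 6 such fits was 1.25 to 1.66.

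**Figure D1:**
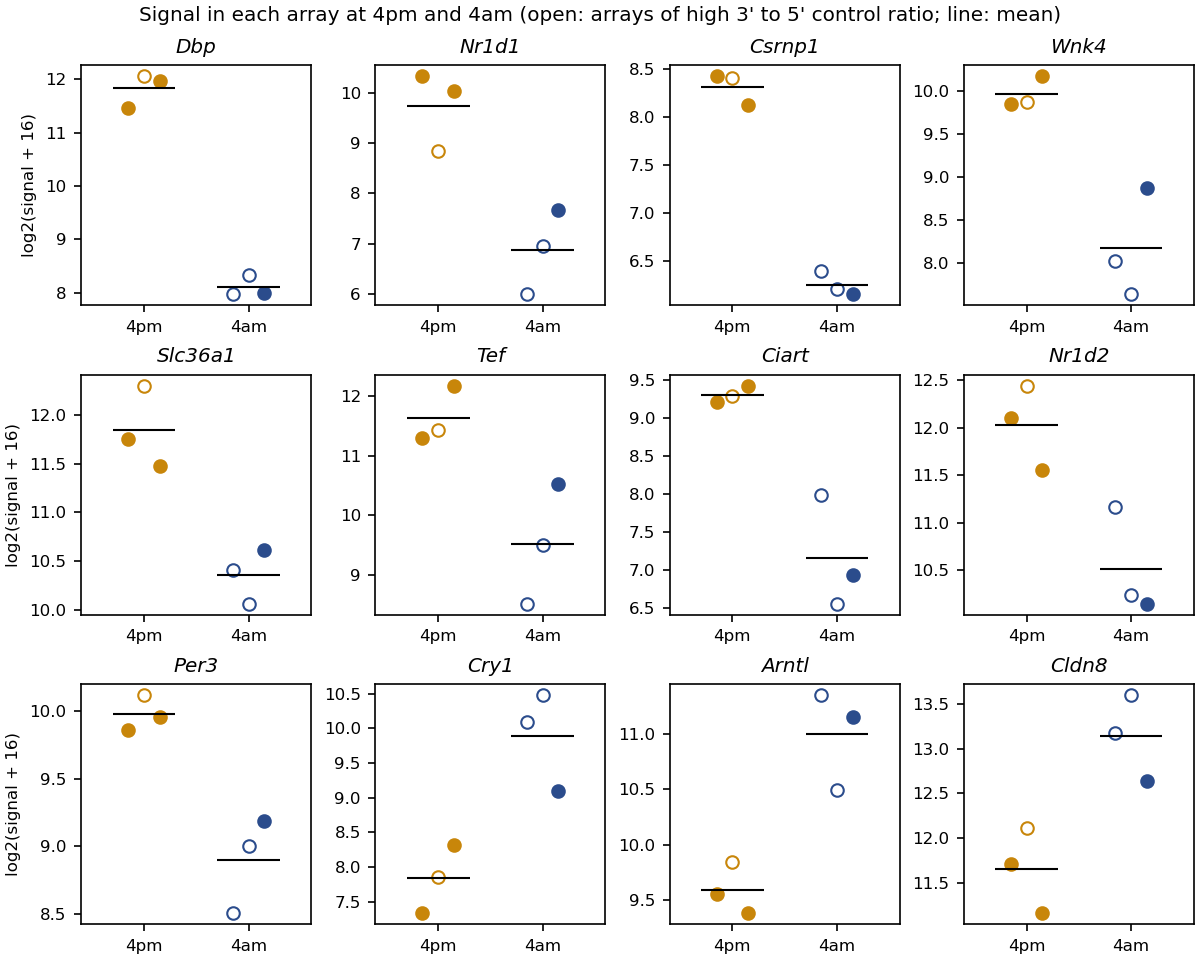
log2(signal + 16) of 12 genes in each 4pm array (orange, a to c from left to right) and each 4am array (blue), with open points for the high-ratio arrays 4pm b, 4am a and 4am b and a line at the mean of 3. The groups do not overlap in any panel, and Cry1, Arntl and Cldn8 are the 3 genes shown that lay lower at 4pm.

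Of 21 core clock genes listed, 17 were tested, and 1 was called (Nr1d1). At an unadjusted p under 0.05, 8 of the 17 were higher and 4 were lower at 4pm, against 13.8% and 5.93% of all genes, and the median difference of the 17 was 0.31 against 0.12. Arntl, which encodes BMAL1, had a signal of 739, 902 and 651 in 4pm a, b and c and 2597, 1425 and 2263 in 4am a, b and c. All 4pm arrays were below all 4am arrays, with a difference of -1.41 ± 0.27 that missed the threshold (adjusted p = 0.0615), and of -1.68 and -1.08 within the low-ratio and high-ratio arrays. A second probe set of Arntl gave -0.38, with overlap. Clock, the partner of BMAL1, was 937, 1431 and 621 at 4pm and 1894, 1532 and 1423 at 4am (arrays a, b and c in order), with -0.76 ± 0.26 (-0.89 within the low-ratio and -0.25 within the high-ratio arrays) and an adjusted p of 0.169, and Npas2, a paralog of Clock, was 218, 176 and 355 at 4pm and 343, 747 and 454 at 4am, with -0.98 ± 0.33 (-0.68 and -1.44, in the same order) and an adjusted p of 0.168. Both overlapped between the times.

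The repressors were split. Cry1 had a signal of 145, 217 and 304 in 4pm a, b and c and 1077, 1416 and 532 in 4am a, b and c. All 4pm arrays were lower, and 4am c was the lowest of the 4am arrays, with a difference of -2.05 ± 0.38 (adjusted p = 0.0585) and -1.27 and -2.43 within the low-ratio and high-ratio arrays. Its paralog Cry2 lay the other way, at 635, 205 and 816 at 4pm and 104, 144 and 302 at 4am, with 1.43 ± 0.45 (1.21 and 0.67) and an adjusted p of 0.157, and its groups overlapped. Among the Period genes, Per3 was 913, 1101 and 981 at 4pm and 347, 496 and 568 at 4am, without overlap, with 1.08 ± 0.22 (adjusted p = 0.0805), 0.72 within the low-ratio and 1.37 within the high-ratio arrays. Its further probe sets above the filter gave 1.83, 0.98 and 1.44, each without overlap. Per1 was 825, 401 and 1874 at 4pm and 96.8, 14.8 and 862 at 4am, with 4am c above 2 of the 4pm arrays, so its difference of 2.59 ± 0.82 (adjusted p = 0.158) was 0.52 within the low-ratio and 2.82 within the high-ratio arrays. Per2 overlapped and lay slightly lower at 4pm, with -0.44 ± 0.28 (adjusted p = 0.369), and its high-ratio difference had the other sign (0.12), as did a second probe set (1.16, with overlap), while another gave -0.35. Ciart, which encodes CHRONO, a repressor of BMAL1 and CLOCK, was 577, 608 and 672 at 4pm and 238, 78.2 and 106 at 4am, without overlap, with 2.15 ± 0.48 (adjusted p = 0.112), 2.39 within the low-ratio and 2.01 within the high-ratio arrays.

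In the second loop, Nr1d2, the paralog of Nr1d1, was 4362, 5531 and 2990.2 at 4pm and 2282, 1194 and 1122 at 4am, without overlap, with 1.51 ± 0.33 (adjusted p = 0.108) and 1.67 and 1.73 within the low-ratio and high-ratio arrays. Rora, an activator of Arntl, differed by 0.31 ± 0.22 (adjusted p = 0.424), and by -0.11 within the low-ratio arrays. Of its 5 further probe sets above the filter, 1 gave 0.82 without overlap, and the others overlapped, from -0.14 to 0.78. Of the kinases that mark PER proteins for turnover, Csnk1e differed by 0.89 ± 0.34 (adjusted p = 0.19) and Csnk1d by -0.42 ± 0.25 (adjusted p = 0.336), and both overlapped. The sign for Csnk1d turned between measures. It was 0.30 within the low-ratio arrays, and its 4 further probe sets gave -0.20, 1.90, 0.43 and 1.25, all with overlap. Cipc, whose protein inhibits CLOCK, differed by 0.54 ± 0.25 (adjusted p = 0.242), with 1.35 without overlap and 0.35 with overlap in its further probe sets. Bhlhe40, a repressor of E-box genes, and Timeless were near 0, at -0.01 ± 0.23 and 0.04 ± 0.29.

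The output list had 16 of its 18 genes tested, with 1 called (Dbp), 5 higher and 2 lower at an unadjusted p under 0.05, and a median of 0.41 that was -0.09 within the low-ratio arrays. Ciart, described above, is in this list and in the core clock list and is counted in each. Tef, a paralog of Dbp, had a signal of 2499, 2748 and 4614 in 4pm a, b and c and 350.3, 713 and 1465 in 4am a, b and c. All 4pm arrays were higher, but 4am c was far above 4am a, and the difference of 2.12 ± 0.38 just missed the threshold (adjusted p = 0.0556), with 1.20 within the low-ratio and 2.42 within the high-ratio arrays. Another probe set of Tef above the filter gave 1.49, with overlap. Hlf, the third of these paralogs, overlapped, with 0.24 ± 0.24 (adjusted p = 0.553), but its second probe set, of nearly the same mean level, gave 0.99 without overlap and 0.83 within the low-ratio arrays. Lonrf3, a RING finger gene, was 355, 452 and 397 at 4pm and 1304, 1123 and 737 at 4am, lower in all 4pm arrays, with -1.33 ± 0.30 (adjusted p = 0.118) and -0.94 and -1.39 within the low-ratio and high-ratio arrays. Tspan4, a tetraspanin gene, was 407, 304 and 765 at 4pm and 137, 233 and 189.9 at 4am, higher in all 4pm arrays, with 1.25 ± 0.34 (adjusted p = 0.137), 1.48 within the low-ratio and 0.71 within the high-ratio arrays. Dtx4, a Notch pathway gene, was also without overlap, with 0.72 ± 0.23 but 0.19 within the low-ratio arrays and 0.08 with overlap in a second probe set. Nampt, the rate-limiting enzyme of NAD salvage, differed by -0.72 ± 0.27 (adjusted p = 0.181) and the cell cycle kinase gene Wee1 by -0.45 ± 0.27 (adjusted p = 0.342), with overlap in each, and a second probe set of Wee1 gave 0.22. For Nampt, another probe set of nearly the same mean level gave -0.39, and 0.07 within the low-ratio arrays. Usp2, Leo1, Cirbp, Coq10b, Ppard, Tsc22d3 and Avpr1a overlapped too, with differences from -0.44 (Leo1) to 0.87 (Ppard). The sign for Coq10b turned between probe sets, at 0.39 in the one used and -0.39 in another. Cirbp, Coq10b, Ppard, Tsc22d3 and Avpr1a were below 0 within the low-ratio arrays, at -0.30, -0.11, -0.11, -0.32 and -0.083.

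The stretches just before the annotated starts of these genes were searched for the E-box CACGTG, bound by BMAL1 and CLOCK, and the D-box TTATGNAA, bound by DBP, TEF and HLF, on both strands, in RefSeq promoters of build GRCm38.p6 (250 bases before each start). The E-box is its own reverse complement, and no E-box overlapped a D-box in the genes shown. The E-box occurred in 6.02% of all 32851 promoters and the D-box in 3.07%, and by gene in 9.63% and 2.35% of the tested genes with a promoter. Of 27 tested genes of the core clock and output lists that have a promoter in the table, 8 held an E-box and 4 a D-box. Among the 5 named genes past the threshold, Slc36a1 was the one with a match. The stretches below are those of Slc36a1 and of the core clock and output genes without overlap of arrays that held a match, a choice made after their values were seen. Each runs 5′ to 3′ on the gene's own strand, with the E-box or D-box in capitals.

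Slc36a1: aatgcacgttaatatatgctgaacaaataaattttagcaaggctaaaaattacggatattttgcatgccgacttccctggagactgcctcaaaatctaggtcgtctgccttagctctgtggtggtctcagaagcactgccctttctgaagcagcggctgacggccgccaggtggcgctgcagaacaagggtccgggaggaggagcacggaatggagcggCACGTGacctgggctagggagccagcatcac
Tef: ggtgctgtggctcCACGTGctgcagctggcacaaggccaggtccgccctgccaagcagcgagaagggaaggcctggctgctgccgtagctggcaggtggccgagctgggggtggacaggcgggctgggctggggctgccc
Cry1: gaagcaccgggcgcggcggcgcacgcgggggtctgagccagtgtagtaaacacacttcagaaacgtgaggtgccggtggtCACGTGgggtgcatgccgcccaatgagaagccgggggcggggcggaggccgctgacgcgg
Per3: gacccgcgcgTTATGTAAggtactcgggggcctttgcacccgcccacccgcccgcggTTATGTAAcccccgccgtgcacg
Ciart: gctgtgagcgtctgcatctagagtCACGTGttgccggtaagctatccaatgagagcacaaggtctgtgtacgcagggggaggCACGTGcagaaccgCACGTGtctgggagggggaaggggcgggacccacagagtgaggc
Lonrf3: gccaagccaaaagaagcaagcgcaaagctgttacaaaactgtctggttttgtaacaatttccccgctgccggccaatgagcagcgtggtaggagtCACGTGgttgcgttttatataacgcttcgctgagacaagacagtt
Tspan4: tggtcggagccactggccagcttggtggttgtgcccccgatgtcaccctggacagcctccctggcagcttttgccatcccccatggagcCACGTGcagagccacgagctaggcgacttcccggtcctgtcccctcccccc

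The Slc36a1 stretch lies at chr11:55204090-55204339, plus strand, 250 bases long, with its E-box 31 bases before the start. The others cover 140 bases to the start, except Per3, of which 80 bases are shown. Tef lies at chr15:81802533-81802672, plus strand, Cry1 at chr10:85185055-85185194, minus strand, Per3 at chr4:151044801-151044880, minus strand, Ciart at chr3:95882229-95882368, minus strand, Lonrf3 at chrX:36328269-36328408, plus strand and Tspan4 at chr7:141476240-141476379, plus strand. Ciart held 3 E-boxes, 116, 58 and 44 bases before its start, and Per3 held 2 D-boxes, 205 and 158 bases before. An E-box stood in the promoters both of genes that lay higher at 4pm (Slc36a1, Tef, Ciart and Tspan4) and of genes that lay lower (Cry1, 60 bases before its start, and Lonrf3, 45 bases before). Tspan4 had a further annotated promoter that held neither motif. Tef had a further one with an E-box 138 bases before its start. A match is a description of the letters in this window, and the windows of Dbp, Nr1d1, Csrnp1 and Wnk4 held neither motif.

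The other 4 times showed where in the day each difference arose, over 3 arrays a time, as mean log2 signal ± SD. Csrnp1 was level at the other 5 times, between 8.22 ± 0.26 at 8am and 8.56 ± 0.26 at 8pm, and was 8.31 ± 0.17 at 4pm and 6.25 ± 0.13 at 4am. Its 4am level differed from the mean of its neighbours 12am and 8am by -2.05 (adjusted p = 5.25e-04). That contrast called 3788 genes (29.4%; the like contrast of 4pm with 12pm and 8pm called 20, 0.155%), but 2 without 4am a, 1598 without 4am b, 6324 without 4am c and 6 without the 3 high-ratio arrays, so a call in it is common here, although Csrnp1 was as low in the low-ratio 4am c. Dbp was at its highest at 4pm (11.83 ± 0.32) and 8pm (11.72 ± 0.94) and at its lowest at 8am (8.00 ± 1.07) and 4am (8.10 ± 0.20). Nr1d1 was highest at 12pm (10.62 ± 0.27) and lowest at 4am (6.87 ± 0.84). Slc36a1 lay highest at 4pm (11.84 ± 0.42) and 8pm (11.75 ± 0.27), which did not differ beyond their spread, and Wnk4 highest at 4pm (9.96 ± 0.18), with 12am next (9.21 ± 0.27). Arntl was lowest at 8pm (9.49 ± 0.16) and 4pm (9.59 ± 0.23) and highest at 4am, and Cry1 ran from 7.57 ± 0.38 at 12pm to 9.89 ± 0.72 at 4am.

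**Figure D2:**
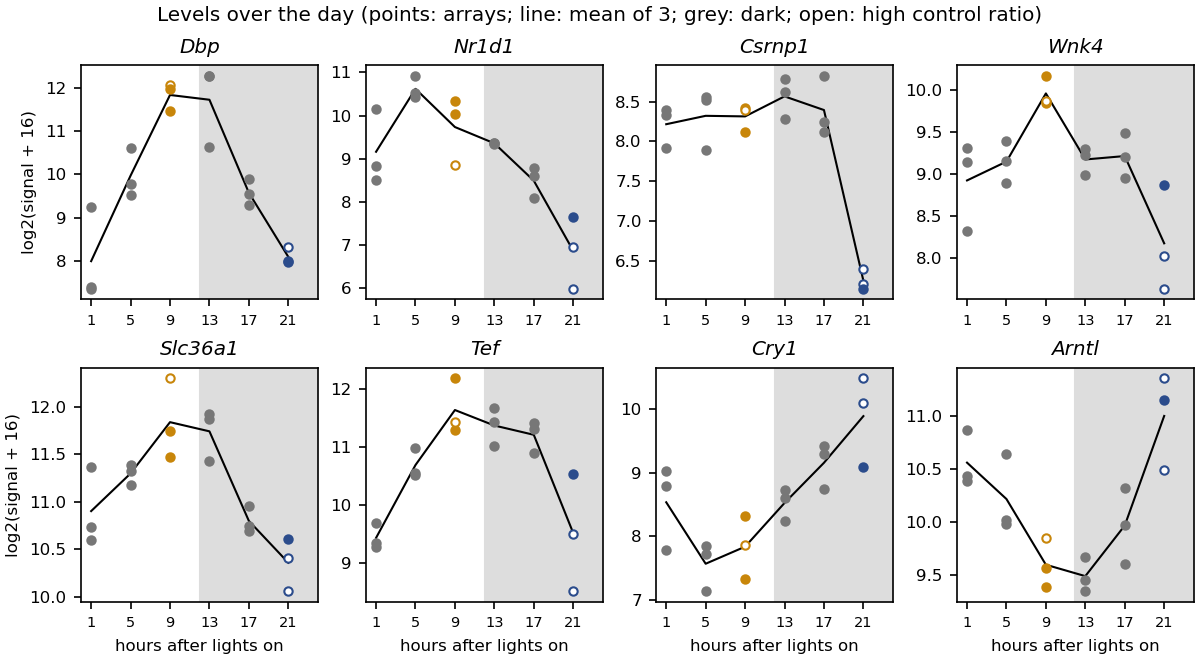
log2(signal + 16) of 8 genes against hours after lights on (1 h is 8am, 21 h is 4am), each point an array, the line the mean of 3 arrays and grey the dark hours; orange is 4pm, blue 4am, and open points are the high-ratio arrays. Csrnp1 is near 8.3 at every time but 4am, where it is 6.25, while Dbp, Tef and Slc36a1 are high at 4pm and 8pm.

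The 4pm to 4am difference was set against the mean of the other two pairs of times 12 h apart, 8am minus 8pm and 12pm minus 12am, in the same fit. It departed from that mean in 9 genes (0.0699%), 7 of them upward, but in 14 without 4pm b and in 3656 without 4am c. They were Dbp (5.39 ± 0.58, adjusted p = 5.10e-04), Tef (3.34 ± 0.46), Tspan4 (2.85 ± 0.42), Csrnp1 (2.27 ± 0.31), Ephx1 (1.67 ± 0.24), Per3 (1.49 ± 0.27), Cldn8 (-2.41 ± 0.38), Arntl (-2.06 ± 0.33) and 1 clone. A daily rhythm by itself makes differences over 12 h change with the time of day, so such a departure need not be particular to 4pm and 4am. For Dbp the single pairs were 3.73 ± 0.47 (4pm minus 4am), -3.72 ± 0.47 (8am minus 8pm, adjusted p = 0.00552, the 1 gene called in that pair, 0.00777%) and 0.40 ± 0.47 (12pm minus 12am). For Csrnp1 the other pairs were -0.35 ± 0.26 and -0.07 ± 0.26, and for Ephx1, which encodes microsomal epoxide hydrolase, -0.72 ± 0.19 and -0.57 ± 0.19 against 1.03 ± 0.19 here. Ephx1 had a signal of 938, 980.4 and 948 in 4pm a, b and c and 419, 414 and 563 in 4am a, b and c, without overlap, and an adjusted p of 0.0615 between 4pm and 4am.

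Most differences at an unadjusted p under 0.05 were smaller within the low-ratio arrays. Of these 2533 genes (19.7% of those tested), 1972 (77.85%) had the same sign within the low-ratio arrays, but 741 (29.25%) had the same sign and at least 0.5 of the size. Within the high-ratio arrays 2530 (99.88%) had the same sign. Both classes were among the 6 arrays whose p chose these genes, so the agreement follows in part from that choice. The median size over the 2533 was 0.83 in all 6 arrays, 0.25 within the low-ratio and 0.95 within the high-ratio arrays. Over all 12870 genes, 5982 (46.5%) had the same sign in all 6 arrays and within both classes. The share of the array quality in these differences was not tested.

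**Figure D3:**
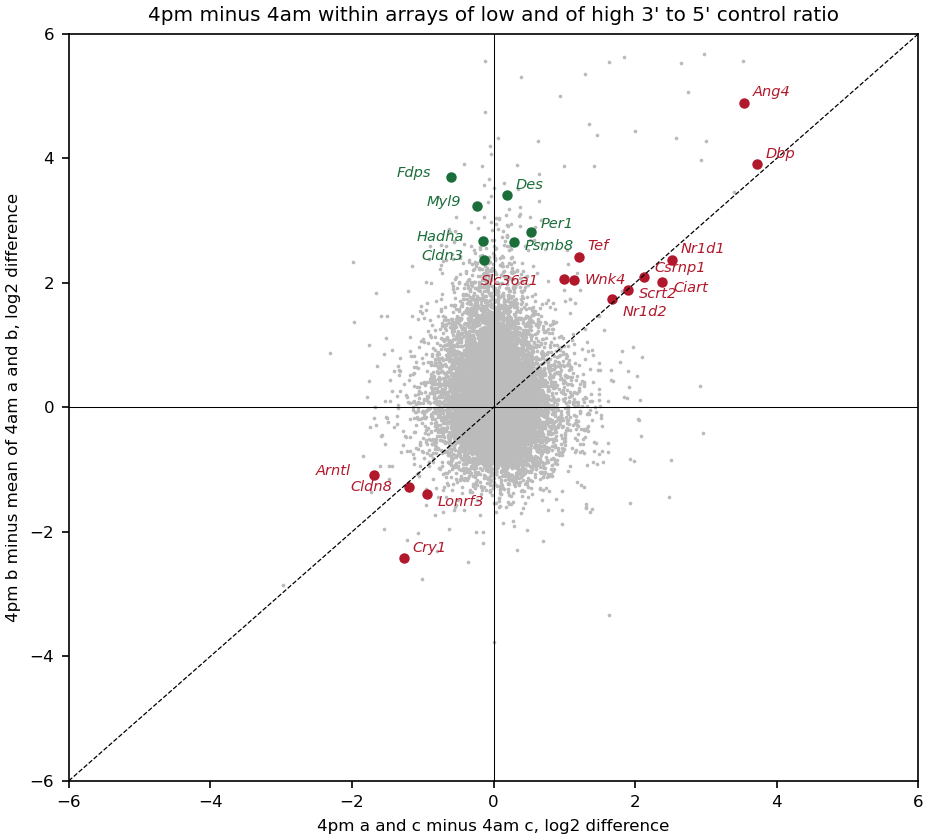
Each grey point is 1 of 12870 genes, with its log2 difference 4pm minus 4am within the low-ratio arrays on the x axis and within the high-ratio arrays on the y axis; the dashed line marks equal differences. The genes named in red lie on the same side of 0 on both axes, Dbp near the line at 3.72 and 3.91 and Tef above it at 1.20 and 2.42, while those in green lie between -0.60 and 0.52 on the x axis and at 2 or more on the y axis, such as Fdps at -0.60 and 3.71.

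A stricter selection took genes with an unadjusted p under 0.01, no overlap of arrays, and a low-ratio difference of the same sign and at least 0.5 of the size. It held 192 genes (1.49%), 125 higher and 67 lower at 4pm, of which 7 were unnamed clones. These values chose the genes, so they are a description. The largest differences upward after Dbp were those of Ang4, Nr1d1, Ciart, Tef, Csrnp1 and Scrt2. Ang4, an angiogenin of intestinal secretory cells with antimicrobial activity, had a signal of 5360.3, 6641 and 392 in 4pm a, b and c and 273, 158 and 111 in 4am a, b and c. It was very high in 4pm a and b and 4pm c lay just above the 4am arrays, so its difference of 3.72 ± 0.86 carried a wide error (adjusted p = 0.118). A second probe set of Ang4 gave 3.86, with overlap. Scrt2, a zinc finger repressor gene, was 288, 274 and 452 at 4pm and 71.7, 54 and 85.1 at 4am, with 2.02 ± 0.37 (adjusted p = 0.0584). Over the day Scrt2 was lowest at 8pm (5.23 ± 0.31) and highest at 12am (8.79 ± 0.19), with 4pm at 8.43 ± 0.38. The probe set used for Scrt2 had a mean of 7.19, near the filter cut of 7.1. Its further probe sets, all below the filter, gave 0.063, -0.0090 and 0.30, with overlap. Further up were Krt88, a keratin gene, at 1.88, Zc3h3, a gene of mRNA export, at 1.91, Bcas3 at 1.82, Cd248, a marker of pericytes and stromal fibroblasts, at 1.78, the connexin gene Gjb5 at 1.73, Fjx1 at 1.71 and Garem2 at 1.54, with adjusted p from 0.108 (Bcas3 and Krt88) to 0.151 (Cd248).

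The largest downward differences after Cry1 were those of Cldn8, Arntl, Lonrf3, Cyp20a1 and Kcnmb2. Cldn8 encodes claudin 8, a sealing claudin of the distal colon's tight junctions. Its signal was 3343, 4402 and 2265 in 4pm a, b and c and 9255, 12408 and 6349 in 4am a, b and c. Every 4pm array was lower than every 4am array, with -1.48 ± 0.31 (2.79-fold, adjusted p = 0.0973) and -1.20 and -1.28 within the low-ratio and high-ratio arrays. Cyp20a1, a cytochrome P450 gene, was 521, 803 and 518 at 4pm and 2129.6, 1950.0 and 860.4 at 4am, with -1.33 ± 0.30. Potassium channel genes were among them, Kcnmb2, a regulatory subunit of the large-conductance calcium-activated channel, at -1.32, and Kcnc1, a voltage-gated channel, at -1.28. The DNA repair and checkpoint genes Ercc1 (-1.29) and Chek1 (-1.22) and Kntc1 of the kinetochore (-1.20) lay lower, as did the chaperone gene Dnajb4 (-1.23), Abce1 of ribosome recycling (-1.22), Scel (-1.21), Timm50 of mitochondrial import (-1.18) and Ggn (-1.18). Further probe sets above the filter did not always lie the same way. Timm50 had an almost equally bright one at 1.15, and the mean of both was -0.012, while others gave 0.30 for Ercc1, -0.017 for Dnajb4, 0.23 for Cyp20a1 and 0.07 for Kcnc1, all with overlap. Abce1 had one at -1.94 without overlap and one at 0.50 with overlap, and Chek1 one at -1.22 with overlap. The probe sets used for Kcnmb2 and Ggn had means of 7.17 and 7.11, near the filter cut of 7.1. For Kcnmb2, another probe set, below the filter, gave -0.09, with overlap. Apart from Cry1, Arntl and Cldn8, the genes named here had an adjusted p between 0.118 (Cyp20a1) and 0.171 (Ggn).

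The lists of colon transport held genes of both kinds. Of 27 sodium, chloride and bicarbonate transport genes tested (of 30), 1 was called (Wnk4), 6 were higher and 1 lower at an unadjusted p under 0.05, and the median was 0.08. The water channel gene Aqp8, of the colonocyte surface, was 7937, 6687 and 7899.8 at 4pm and 1643, 2099 and 9564 at 4am. Its 4am c array was the highest of the 6, so the difference of 1.22 ± 0.42 (adjusted p = 0.171) was -0.27 within the low-ratio and 1.84 within the high-ratio arrays. Aqp1, an endothelial and erythroid water channel, differed by 1.80 ± 0.51 (0.28 and 2.17), and Nedd4l, the ubiquitin ligase that removes the epithelial sodium channel, by 1.22 ± 0.44 (-0.30 and 1.79), the first value in brackets being that of the low-ratio and the second that of the high-ratio arrays. In the same order, of 10 potassium genes tested (of 12) none was called, and Kcnk5 differed by 1.92 ± 0.53 (0.48 and 2.10), Kcnk1 by -0.76 ± 0.25 (-0.31 and -0.75), Kcnq1 by 0.68 ± 0.25 (-0.0033 and 1.20) and Fxyd4, a colon regulator of the sodium pump, by -0.60 ± 0.26 (-0.79 and -0.40).

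Of 13 amino acid and peptide transport genes tested (of 14), 1 was called (Slc36a1), and the creatine transporter gene Slc6a8 was 5824, 7121 and 9364 at 4pm and 1890.5, 3744 and 5223 at 4am, without overlap, with 1.13 ± 0.30 (adjusted p = 0.137) and 0.50 within the low-ratio arrays. Slc1a5, a glutamine transporter, differed by 1.28 ± 0.38 (0.24 and 1.76) and Slc38a2, a sodium-coupled neutral amino acid transporter, by -0.48 ± 0.23 (-0.18 and -0.35). The tight junction list, with 15 of 17 tested and none called, had 6 genes higher and 4 lower at an unadjusted p under 0.05 and a median of -0.32. Its claudins lay both ways. Cldn8 is given above, Cldn3 differed by 1.97 ± 0.67 but by -0.13 within the low-ratio arrays, with 7838, 3341 and 8689.9 at 4pm and 555, 724 and 9035 at 4am, and Cldn15 by 1.21 ± 0.42 (0.14 and 1.68). Cgn, which encodes cingulin, differed by 1.20 ± 0.32 without overlap, of which 0.12 was seen within the low-ratio arrays.

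Among genes of signals that follow the day, 23 of 24 immediate early and stress kinase genes were tested, with 1 called (Csrnp1), 5 higher and 1 lower at an unadjusted p under 0.05 and a median of 0.16. Ier2 was 2605, 2009 and 3202 at 4pm and 519.6, 313 and 1955 at 4am, without overlap, with 1.87 ± 0.42 (adjusted p = 0.116), 0.56 within the low-ratio arrays. Ier3 differed by 0.71 ± 0.23 (0.89 and 0.57), without overlap, and Dusp6, a phosphatase of ERK, by -0.96 ± 0.30 (-0.85 and -0.56). All 14 glucocorticoid targets were tested and none was called. Fkbp5, a co-chaperone of the glucocorticoid receptor, was 1838, 2675 and 1978 at 4pm and 1262, 650.2 and 1272 at 4am, without overlap, with 1.06 ± 0.26 (adjusted p = 0.137). That difference was 0.58 within the low-ratio and 1.54 within the high-ratio arrays. Zbtb16 differed by 0.64 ± 0.25 (0.61 and 0.34), Tsc22d3, which encodes GILZ, by 0.27 ± 0.44, and Hsd11b1, which regenerates active glucocorticoid, by -0.76 ± 0.37 (-0.26 and -0.86).

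No gene of the metabolic lists was called. Of 24 xenobiotic genes tested (of 30), 5 were higher and 4 lower at an unadjusted p under 0.05, with a median of -0.06. Sult1b1, a sulfotransferase of the gut, was 2635, 3714 and 2089 at 4pm and 7931, 7535 and 3718 at 4am, lower in all 4pm arrays, with -1.14 ± 0.27 (adjusted p = 0.127). That difference was -0.66 within the low-ratio and -1.055 within the high-ratio arrays. Nr1i2, the receptor PXR, differed by 2.14 ± 0.74 and Cyp2d26 by 1.65 ± 0.48, of which 0.12 and 0.24 were seen within the low-ratio arrays. In lipid synthesis (19 of 22 tested, 3 higher and 3 lower at an unadjusted p under 0.05), Scd1, the stearoyl-CoA desaturase gene, was 1248, 1648 and 1969 at 4pm and 5513, 3110.0 and 2377 at 4am, lower in all 4pm arrays, with -1.10 ± 0.30 (adjusted p = 0.137). The cholesterol genes Fdps, Fdft1 and Srebf2 differed by 2.31 ± 0.80, 1.47 ± 0.46 and 1.40 ± 0.55, against -0.60, 0.05 and -0.38 within the low-ratio arrays. In fatty acid oxidation (18 of 22 tested, median 0.38), Slc16a1, the monocarboxylate transporter that takes up butyrate, lay lower without overlap, with -0.46 ± 0.15 (adjusted p = 0.162), and Hadha, Acadvl and Ppara differed by 1.82 ± 0.60, 1.11 ± 0.37 and 1.73 ± 0.56, against -0.15, 0.09 and 0.32 within the low-ratio arrays.

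In the lists of renewal, 22 of 26 DNA replication genes were tested and none was called. Of these, 17 had a lower mean at 4pm over all 6 arrays, 17 within the low-ratio and 13 within the high-ratio arrays, against 5284, 6082 and 5638 of all 12870 genes. At an unadjusted p under 0.05, 6 were lower and none higher (5.93% and 13.8% of all genes), with a median of -0.39 against 0.12 over all genes. Pcna, the sliding clamp of the replication fork, was 3012, 4497 and 1770.5 at 4pm and 9383, 6299 and 4266 at 4am, with -1.13 ± 0.34 (adjusted p = 0.153). The primase and polymerase genes Prim1 and Pola1 differed by -0.99 ± 0.33 and -1.03 ± 0.34, and the clamp loader gene Rfc4 by -0.80 ± 0.31. None of the 22 was without overlap. The 22 mitosis genes tested (of 23) had a median of 0.08 that turned to -0.03 with quantile normalization, -0.11 without 4am b and -0.06 within the low-ratio arrays, with 3 higher at an unadjusted p under 0.05. Plk1, a mitotic kinase, was 290.3, 234 and 182 at 4pm and 84.1, 74.7 and 121 at 4am, without overlap, with 1.20 ± 0.38 (adjusted p = 0.158), while Bub1b of the spindle checkpoint differed by 1.70 ± 0.56, and by 0.00 within the low-ratio arrays, Mad2l1 by -0.68 ± 0.34 (-0.68 and -0.24) and Ube2c by 0.99 ± 0.47, which was -0.22 within the low-ratio arrays. Of crypt base and Wnt targets (15 of 19 tested, median 0.08, or -0.04 with quantile normalization, and near 0 without 4am b), Rnf43 differed by 1.41 ± 0.37 (0.78 and 1.20), the stem cell factor gene Ascl2 by 1.58 ± 0.56 (1.87 and 1.91), Smoc2 by 0.88 ± 0.27 (0.24 and 1.21) and Axin2 by 0.79 ± 0.29 (-0.02 and 1.13).

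Heat shock genes (16 of 17 tested, none called) had a median of -0.21. Hspb1, a small heat shock protein gene, was 6042, 5421 and 4994 at 4pm and 1562, 1877 and 3409 at 4am, without overlap, with 1.34 ± 0.25 (adjusted p = 0.0615). That difference was 0.69 within the low-ratio and 1.65 within the high-ratio arrays. In the same order, Cryab differed by 1.04 ± 0.28 (0.47 and 1.46), without overlap. Hsp90aa1 lay the other way, at -0.61 ± 0.25 (-0.12 and -0.66), and Ahsa1, an activator of HSP90, at 1.12 ± 0.37 but -0.03 within the low-ratio arrays. Of 18 interferon response genes tested (of 25), none was called. A higher mean at 4pm was seen in 16 over all 6 arrays and in 15 within each ratio class, against 7586, 6788 and 7232 of all 12870 genes over all, low-ratio and high-ratio arrays, with medians of 0.51, 0.38 and 0.63 in all, low-ratio and high-ratio arrays. Psmb8, of the immunoproteasome, was 808, 900.3 and 1057 at 4pm and 150.4, 112 and 750.4 at 4am, with 1.88 ± 0.44 (adjusted p = 0.118), 0.29 within the low-ratio arrays. The factors Irf1 and Irf7 differed by 0.87 ± 0.29 and 0.79 ± 0.38, and Psmb9 by 0.75 ± 0.28. Within the low-ratio arrays Irf1 was at 0.21, while Irf7 and Psmb9 turned sign, to -0.033 and -0.035. In antimicrobial defence (12 of 24 tested, median 0.12), beside Ang4, Pla2g2a differed by 1.44 ± 0.60, Pigr, the receptor that carries IgA to the lumen, by -0.47 ± 0.20 and Myd88 by 0.80 ± 0.37.

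**Figure D4:**
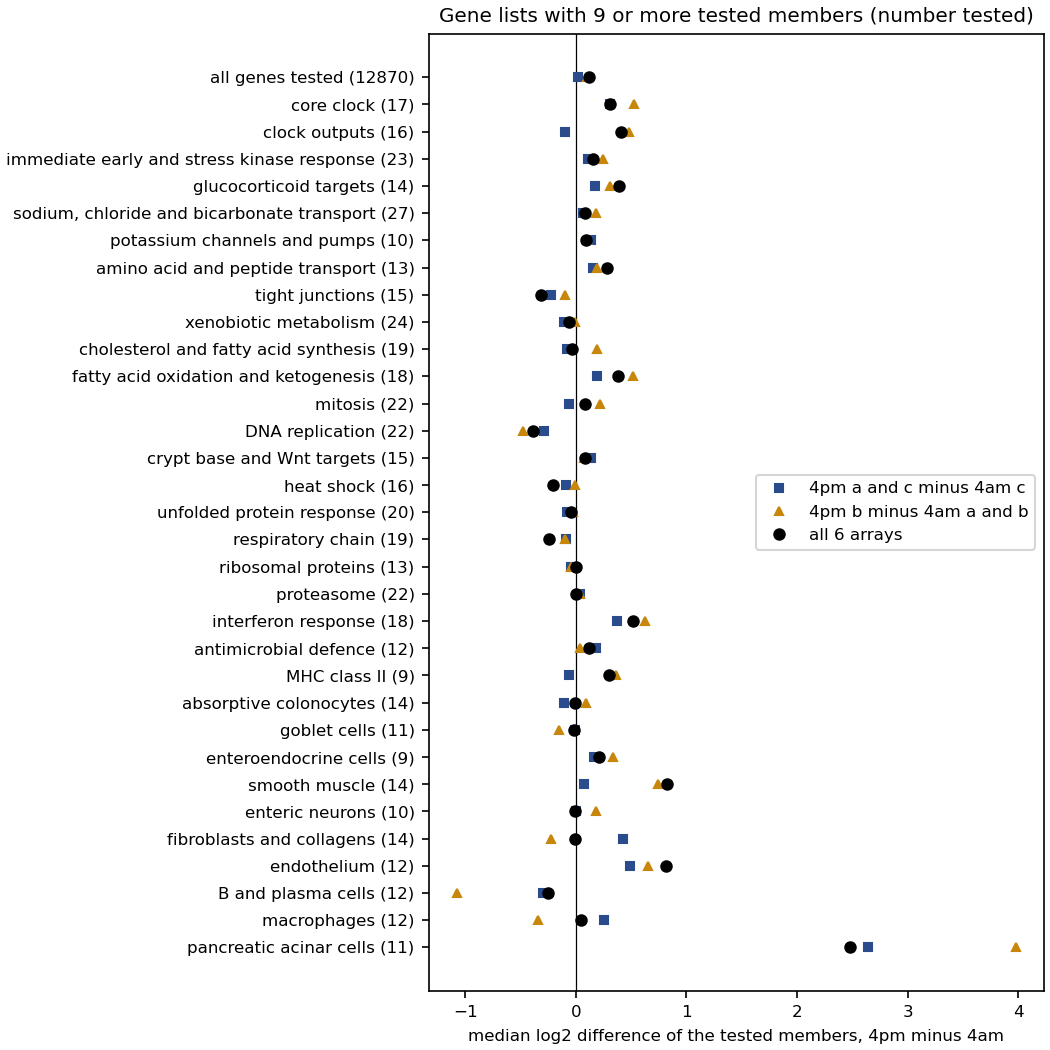
Median log2 difference 4pm minus 4am of the tested members of each gene list with 9 or more tested members (the number in brackets), for all 6 arrays (circles), the low-ratio arrays (squares) and the high-ratio arrays (triangles). DNA replication lies at -0.39, interferon response at 0.51, endothelium at 0.81 and pancreatic acinar cells at 2.48, against 0.12 for all genes.

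Markers of other cell types also differed between arrays. In whole tissue, fewer cells of a type and less RNA per cell cannot be told apart. All 12 endothelium markers were tested and none was called. At an unadjusted p under 0.05, 6 were higher and 1 lower (13.8% and 5.93% of all genes), the median was 0.81 (0.49 within the low-ratio and 0.65 within the high-ratio arrays), and their mean log2 signal was 8.65, 8.45 and 8.58 in 4pm a, b and c and 7.86, 8.04 and 8.08 in 4am a, b and c, so all 4pm arrays lay above all 4am arrays on this scale. Over all genes that mean was 9.45, 9.37 and 9.50 at 4pm and 9.16, 9.21 and 9.44 at 4am. The summed signal of the same markers did not separate the times, with 5279, 6047 and 5183 at 4pm and 7762, 5384 and 3891 at 4am, 4am a being the highest. Kdr, the receptor VEGFR2, was 628, 536 and 706 at 4pm and 296, 257 and 339 at 4am, without overlap, with 1.03 ± 0.30 (adjusted p = 0.147), and Esam and Flt1 differed by 0.90 ± 0.24 and 1.09 ± 0.46, also without overlap, while Emcn overlapped (0.63 ± 0.28). All 14 smooth muscle markers were tested, with a median of 0.83 but 0.07 within the low-ratio arrays and -0.12 without 4am a, and a mean log2 signal of 11.89, 11.54 and 12.4 in 4pm a, b and c and 9.87, 11.69 and 12.1 in 4am a, b and c. Des, which encodes desmin, was 3813, 1987 and 6699.7 at 4pm and 52.3, 507 and 4419 at 4am, and Myl9 was 9319.7, 7400.0 and 10318 at 4pm and 229.8, 2506 and 11561 at 4am. Both were low in 4am a and b and high in 4am c, so Des differed by 2.78 ± 0.95 and Myl9 by 2.21 ± 0.82, against 0.19 and -0.24 within the low-ratio arrays. Lmod1 and Pgm5 differed by 1.35 ± 0.44 and 1.33 ± 0.54, against 0.36 and 0.19 within the low-ratio arrays.

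Of 12 B and plasma cell markers tested (of 14), 8 had a lower mean at 4pm (5284 of all 12870 genes did) and none was called, with medians of -0.25, -0.29 and -1.07 in all, low-ratio and high-ratio arrays. Ms4a1, which encodes CD20, was 420.5, 194 and 786 at 4pm and 1338, 1478 and 1173 at 4am, lower in all 4pm arrays, with -1.68 ± 0.62 (adjusted p = 0.181; -1.01 and -2.76 within the low-ratio and high-ratio arrays), and Ighm, Fcmr and Cd79b differed by -0.98 ± 0.39, -0.86 ± 0.52 and -0.65 ± 0.69. Pancreatic acinar markers, genes of digestive enzymes, were present at levels that varied widely between single arrays. Of 11 tested (of 14; Zg16 among them is also a goblet cell gene), 9 had a higher mean at 4pm (7586 of all 12870 genes did), none was called, the median was 2.48, and the mean log2 signal was 12.21, 13.6 and 9.36 in 4pm a, b and c and 10.82, 9.67 and 8.89 in 4am a, b and c. Cel was 1194, 12012 and 289.7 at 4pm and 304, 191 and 181 at 4am, and Cela2a was 3185, 13504 and 112 at 4pm and 557, 128 and 39.9 at 4am, highest in 4pm b and a and low in 4pm c. Ang4 was likewise high in 4pm a and b and low in 4pm c. The part of these cells or of the array quality in the differences named above was not tested.

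**Figure D5:**
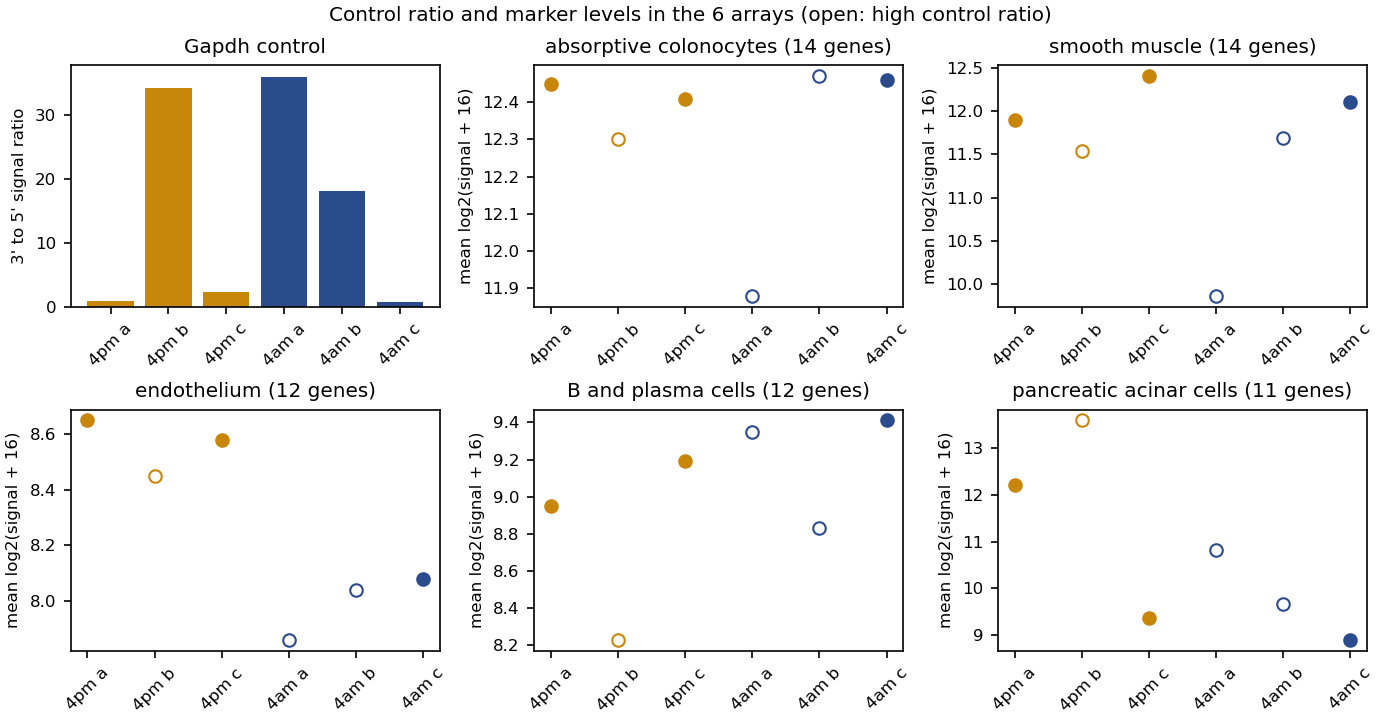
The 3′ to 5′ signal ratio of the Gapdh control (bars) and the mean log2(signal + 16) of the tested markers of 5 cell types (points) in the 6 arrays, orange for 4pm and blue for 4am, with open points for the high-ratio arrays. Endothelial markers are at 8.45 to 8.65 at 4pm and 7.86 to 8.08 at 4am, smooth muscle markers are lowest in 4am a (9.87), and acinar markers are highest in 4pm b (13.6).

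With the log2 Gapdh ratio of each array added as a covariate over all 18 arrays, limma called 192 genes (1.49%), 173 higher (1.34%) and 19 lower (0.148%), among them all 6 of the first fit. The Actb ratio, 4.99 in 4pm b against 55.4 and 16.6 in 4am a and b, was not in this fit. Time and array quality thus cannot be fully told apart in it. Of the 192, 179 had the same sign within both ratio classes, 76 were without overlap and 3 were clones. Over all genes, 46.5% had the same sign in all 6 arrays and within both classes. Without overlap, 5.57% of all genes lay above and 2.27% below at 4pm. The 192 were chosen by a fit on these same arrays, so their counts are a description. A shared sign did not mean a like size, as the values of Psmb8, Kcnk5 and Aqp1 below show. How many of the 192 had at least 0.5 of the size within the low-ratio arrays was not counted. The clock genes past the threshold were then Dbp (3.79 ± 0.47, adjusted p = 0.00136), Nr1d1 (2.61 ± 0.33), Ciart (2.20 ± 0.48), Tef (1.95 ± 0.32), Nr1d2 (1.61 ± 0.31) and Per3 (1.06 ± 0.21) upward, and Cry1 (-1.92 ± 0.35), Arntl (-1.39 ± 0.26) and Lonrf3 (-1.24 ± 0.28) downward, the last with an adjusted p of 0.0399. From the other lists, Ang4 (3.92 ± 0.84), Csrnp1 (2.09 ± 0.26), Wnk4 (1.69 ± 0.28), Ier2 (1.63 ± 0.30), Hspb1 (1.23 ± 0.22), Fkbp5 (1.07 ± 0.26) and Ephx1 (0.99 ± 0.18) passed upward and Cldn8 (-1.37 ± 0.28) and Sult1b1 (-0.99 ± 0.19) downward. Slc36a1, Psmb8, Kcnk5, Cldn3, Aqp1, Junb and Rnf43 passed upward too. However, Psmb8, Kcnk5, Cldn3 and Aqp1 differed by 0.29, 0.48, -0.13 and 0.28 within the low-ratio arrays. Within the high-ratio arrays the same genes differed by 2.65, 2.10, 2.37 and 2.17. No gene of the DNA replication, endothelium, smooth muscle, B and plasma cell or pancreatic acinar lists passed with limma in this fit, and at an unadjusted p under 0.05 it held 1805 genes higher (14%) and 709 lower (5.51%).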

How the data were processed

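The deposited table holds 1 signal intensity per probe set and array on a linear scale. The authors made it with GCOS, the Affymetrix software that the submitters' processing notes name without a version, and each array's trimmed mean (2% off each end) was 500 in the deposited values. The table holds no detection calls, and precision is limited by the number of arrays. No genome build is given in the sources used here, and promoters come from RefSeq's table of GRCm38.p6.

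Of 45101 probe sets, 64 were controls, 34945 carried 1 gene symbol, 932 several, and 9160 were not listed. Signals were taken as log2(signal + 16). Probe sets with a mean under the 40th percentile (7.1) were dropped, and a gene was represented by its brightest probe set on average, leaving 12870 genes. Among the genes of the clock lists and of the selections by size, 27 had further kept probe sets, of which 29 of 43 gave the same sign.

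Group means of all 18 arrays were fitted with limma 3.58.1 in R 4.3.3, with a trend in the moderation, 12 residual degrees of freedom and two-sided tests. The arrays were grouped by the time in their titles. The letters a, b and c were not used as pairs in the main fit. Deviations from the group means correlated at -0.49, -0.00868 and 0.295 between the 4pm and 4am arrays of letters a, b and c. These values cannot settle whether the letters pair arrays, because letter a joins a low-ratio with a high-ratio array. Genes named were all tested core clock and clock output genes, up to 15 a direction past an adjusted p of 0.05, up to 15 a direction of the stricter selection described, and 2 to 4 tested members with the lowest p of each other list described, Tsc22d3 being named as a clock output. Clones were counted, and Clca4a and Junb were named after their values were seen. The comparison and the lists were chosen with earlier results of these data known. Alternatives changed the added constant, scaling, filter, probe set rule, moderation, arrays used and covariates.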

Additional observations from a re-analysis of the deposited data

Results flagged for a closer look

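Some genes differed between 4pm and 4am in another way than between the other pairs of times 12 h apart, by a limma test of that difference (4pm minus 4am less the mean of 8am minus 8pm and 12pm minus 12am, log2, 3 arrays a time, 12870 genes tested). Higher departures were found for Dbp (5.39, adjusted p = 0.00051), Tef (3.34, adjusted p = 0.00421), Tspan4 (2.85, adjusted p = 0.00551), Csrnp1 (2.27, adjusted p = 0.00421), Ephx1 (1.67, adjusted p = 0.00487) and Per3 (1.49, adjusted p = 0.0461). Lower departures were found for Cldn8 (-2.41, adjusted p = 0.012) and Arntl (-2.06, adjusted p = 0.012). Because a daily rhythm alone makes 12 h differences vary with the time of day, these departures need not be particular to 4pm and 4am.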

How the results depend on the processing

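The tests rest on 3 arrays a time, of which 4pm b, 4am a and 4am b had high control ratios, and low signals have no detection call. Genes higher and lower at 4pm numbered 6 and 0. They were 1 and 0 with only the 6 arrays, 2095 and 1180 with array quality weights, 0 and 0 without 4pm b, 4am a and 4am b, 173 and 19 with the Gapdh ratio as a covariate, 9 and 1 with 64 added in place of 16, 8 and 1 with quantile normalization, 8 and 2 with the mean of a gene's probe sets, and, chosen after seeing the data, 0 and 0 for 4pm a against 4am c only and 5 and 0 with the high-ratio arrays as a block. The other settings that kept all arrays gave 5 to 7 higher and none lower. These are genes, except where every probe set was tested alone. There the 5 were probe sets, with Dbp among them more than once. Leaving out 1 array gave 2 to 2567 higher and 0 to 1523 lower. Genes whose difference departed from the other pairs numbered 9, but 3473 with weights, 56 with the covariate and 6 to 3656 with 1 array left out. Genes whose 4pm level departed from the mean of 12pm and 8pm numbered 20, but 9 with the filter at the 60th percentile, 2 with the mean of probe sets, 3227 with weights, 199 without the 3 high-ratio arrays, 39 with the covariate and 0 to 138 with 1 array left out. Genes whose 4am level departed from the mean of 12am and 8am numbered 3788, but 6 without the 3 high-ratio arrays, 1 with the covariate and 2 to 6324 with 1 array left out. With the letter as a replicate block, the counts were 6 higher and 0 lower at 4pm, 10 for the other pairs, 9 for 4pm and 3618 for 4am. The cause of these moves was not tested, except that leaving arrays out leaves fewer samples.

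Over the 126 named genes, log2 differences turned sign in 66 of the recomputed values, kept sign and side of the threshold in 2556, newly passed in 219 and no longer passed in 35. Without 4pm b, 4am a and 4am b they turned for Rora (-0.11), Bhlhe40 (0.31), Csnk1d (0.30), Timeless (-0.0031), Coq10b (-0.11), Tsc22d3 (-0.32), Cirbp (-0.30), Ppard (-0.11), Avpr1a (-0.083), Fdps (-0.60), Srebf2 (-0.38), Axin2 (-0.017), Hadha (-0.15), Ahsa1 (-0.033), Psmb9 (-0.035), Irf7 (-0.033), Ube2c (-0.22), Kcnq1 (-0.0033), Myl9 (-0.24), Aqp8 (-0.27), Nedd4l (-0.30) and Cldn3 (-0.13). For 4pm a against 4am c only they turned for Per1 (-0.062), Rora (-0.25), Bhlhe40 (0.39), Tsc22d3 (-0.61), Cirbp (-0.47), Avpr1a (-0.20), Myd88 (-0.13), Fdps (-0.025), Srebf2 (-0.013), Ahsa1 (-0.082), Psmb9 (-0.046), Irf7 (-0.12), Kcnq1 (-0.00585), Lmod1 (-0.079), Des (-0.21), Myl9 (-0.31), Aqp8 (-0.27), Nedd4l (-0.089), Cldn3 (-0.20) and Nr1i2 (-0.0092). The covariate turned Bhlhe40 (0.11) and Timeless (-0.047), weights turned Hlf (-0.097) and Usp2 (-0.22), median centring turned Timeless (-0.15) and Avpr1a (-0.16), quantile normalization turned Bhlhe40 (0.14), Timeless (-0.16) and Avpr1a (-0.18), the high-ratio block turned Bhlhe40 (0.19), Timeless (-0.080) and Avpr1a (-0.011), and the mean of probe sets turned Per2 (0.12), Csnk1d (0.59) and Avpr1a (-0.039). With 1 array left out in turn, Bhlhe40 ran from -0.24 to 0.23, Timeless from -0.32 to 0.30, Avpr1a from -0.068 to 0.085, Tsc22d3 from -0.54 to 0.75 and Coq10b from -0.039 to 0.81.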
